A study of Mus musculus with 2 samples.

Results

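Imprinted genes are genes of which mainly the copy from one parent is transcribed. The mouse genes described here were taken from a list of 37 such genes, and each was represented by its brightest transcript cluster, a group of probes that the array annotation gives to that single gene. Of the 37, 30 had such a cluster, among 19938 genes with one. The clusters of Mirg, Snrpn, Ube3a and Gnas named other genes too and were set apart, and no cluster was named for H19, Kcnq1ot1 or Zrsr1 in the annotation used here. The mean signal of the middle gene, 8.01 on the log2 scale, served as an expression floor. It was exceeded on at least 1 array by 23 of the 30 and by 10122 genes in all.

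RNA was measured in neural crest descendants of the heart from mouse embryos at stage E14.5 on a C57BL/6 background. Embryos with both copies of the gene (Adam19+/+) were compared with embryos lacking it (Adam19-/-), and all of them also carried the driver Wnt1-Cre and the reporter allele R26tdTomato/+. Wnt1-Cre is active in the neural crest, and the sort on tdTomato collected all its marked descendants in the heart as a mixture. Adam19 encodes a membrane-anchored metalloprotease, and the comparison asks which transcripts differ in these cells without it. With a single array for each genotype (n = 1), a difference is that between 2 samples, and it comes with no replicate, no error between embryos and no test. Each difference is the log2 signal in Adam19-/- cells less that in Adam19+/+ cells. In a sorted mixture, fewer cells of a type and less RNA per cell cannot be told apart.

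Imprinted genes lie mostly in clusters under a control region that carries DNA methylation on a single parental copy. Many act on growth of the embryo and placenta: paternally expressed genes such as Igf2 tend to promote growth, and maternally expressed genes such as Cdkn1c, Phlda2, Grb10 and Igf2r tend to restrain it. Many regions also hold a long non-coding RNA, such as H19 or Meg3, and some of these, such as Airn and Kcnq1ot1, silence neighbours on the same chromosome. The parental origin named below is this general knowledge. The array did not tell the parental copies apart, and origin can vary with tissue, as for Ube3a and Grb10 in neurons.

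Over all clusters the arrays had median log2 signals of 7.49 (Adam19+/+) and 7.52 (Adam19-/-). Adam19 itself was at 11.62 and 9.77, the direction of the labels. The genes above the floor had a median difference of 0.04, a central 95% from -0.20 to 0.30, and an SD across genes of 0.13. The differences given by 2 clusters of the same gene lay a median of 0.05 apart, with a 95th percentile of 0.24. Each imprinted gene had a single cluster, so this check could not be made for them. Markers of smooth muscle were above the floor in 5 of 5 cases, those of valve and fibrous mesenchyme in 5 of 5, of autonomic neurons in 4 of 4 measured and of Schwann cells in 2 of 3 measured. Other marker lists also differed between the samples. Beside the counts that follow, 51.7% of all measured genes were higher and 34.1% lower. Above the floor these shares were 65.2% and 33.7%. With few genes in each list, a count can lie near these shares. Of the leukocyte markers 10 of 10 were higher in the Adam19-/- sample, with a summed linear signal of 1896 in Adam19+/+ and 2552 in Adam19-/- cells, although 6 of the 10 lay below the floor on both arrays. Of the cardiomyocyte markers 7 of 8 were higher, with sums of 7648 and 8284, and the 3 measured Y-linked genes were lower, with sums of 1368 and 524. Of the endothelial markers 5 of 6 were higher (sums 1890 and 2099), of the erythroid markers 3 of 3 measured (2263 and 2768), and of the epicardial markers 3 of 4 with 1 equal (1654 and 1871). Among the cell types the sort should hold, 4 of 5 markers of valve and fibrous mesenchyme were higher (16629 and 17527), with Sox9 at 0.57, Scx at 0.42 and Twist1 at 0.40, and 3 of 4 of autonomic neurons (4321 and 5215). All 5 smooth muscle markers were lower (26832 and 24915). Of the Schwann cell markers 2 of 3 measured were lower, although their sum was higher (2626 and 2650). Above the floor 1 Schwann cell marker was higher and 1 lower. Of the melanocyte markers 3 of 5 were lower (2505 and 2348), but above the floor 2 were higher and 1 lower. What part these differences have in any value below was not tested.

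The promoters of Meg3, Airn, Phlda2 and Asb4, the members above the floor on both arrays with the largest differences, are shown first. These windows were taken at gene starts and were not matched to the control regions of the clusters. Of the 37 listed genes, 31 had a window in the RefSeq promoter table (build GRCm38.p6), which runs from 250 bases before a start to 50 after it. For Meg3 and Airn, which are not translated, the whole window at the first listed start is printed. For the coding genes Phlda2 and Asb4 only the 250 bases before the start are printed. Capitals mark a match to TGCCGC, the hexamer bound by the imprint-protecting zinc finger protein ZFP57, or to GGGGCCCC, a site of the imprinted zinc finger factor PLAGL1, on either strand.
Meg3 (chr12:109540746-109541045, + strand): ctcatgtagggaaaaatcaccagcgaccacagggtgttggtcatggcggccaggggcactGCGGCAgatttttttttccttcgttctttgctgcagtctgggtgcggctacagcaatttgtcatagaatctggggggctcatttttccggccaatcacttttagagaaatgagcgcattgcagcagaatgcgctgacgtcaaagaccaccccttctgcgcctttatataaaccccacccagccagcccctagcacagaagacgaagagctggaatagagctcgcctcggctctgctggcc
Airn (chr17:12741061-12741360, + strand): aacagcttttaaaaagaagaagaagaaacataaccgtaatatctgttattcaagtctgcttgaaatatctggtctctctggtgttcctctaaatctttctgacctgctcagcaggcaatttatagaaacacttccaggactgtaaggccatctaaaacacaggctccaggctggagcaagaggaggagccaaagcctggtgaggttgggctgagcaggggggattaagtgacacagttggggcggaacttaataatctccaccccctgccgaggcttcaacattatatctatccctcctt
Phlda2 (chr7:143502525-143502774, - strand): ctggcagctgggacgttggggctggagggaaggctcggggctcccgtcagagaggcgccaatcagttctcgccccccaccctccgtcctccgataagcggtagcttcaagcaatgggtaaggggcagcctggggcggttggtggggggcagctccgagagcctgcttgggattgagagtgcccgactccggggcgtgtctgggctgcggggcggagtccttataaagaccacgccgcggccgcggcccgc
Asb4 (chr6:5383136-5383385, + strand): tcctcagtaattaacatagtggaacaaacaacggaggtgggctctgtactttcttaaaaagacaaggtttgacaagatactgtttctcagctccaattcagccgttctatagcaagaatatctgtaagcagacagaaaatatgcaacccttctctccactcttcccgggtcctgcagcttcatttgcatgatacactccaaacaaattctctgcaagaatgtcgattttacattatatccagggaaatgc

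Among these 4 windows only that of Meg3 held a match, a TGCCGC on the opposite strand that begins 190 bases before the start. TGCCGC was found in 12 of 46 windows of the listed genes (26.1%), belonging to 11 genes, and in 11.6% of all 32851 windows. GGGGCCCC was found in 2 of 46 windows (4.35%), those of Peg3 and Usp29, and in 1.08% of all windows. CpG dinucleotides numbered 13 in the Meg3 window and 3 in the Airn window. The median was 13.5 over the windows of the listed genes and 7 over all windows. TGCCGC itself holds a CpG, and the windows compared were not matched for CpG number. The 46 windows belong to 31 genes, so alternative starts of a gene count separately. A match describes these letters and is not a bound site.

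Of the 23 imprinted genes above the floor, 3 passed the fold used for counting, a ratio of 5 to 4 in linear signal or 0.322 on the log2 scale. Meg3 was lower in Adam19-/- cells by 1.56-fold, and Asb4 and Phlda2 were higher by 1.40-fold and 1.30-fold. That is 1 of 23 lower (4.35%), against 0.652% of all genes above the floor, and 2 of 23 higher (8.7%), against 1.97%. At 1.5-fold Meg3 alone was left, against 0.0889% of all genes lower and 0.148% higher. Of the 23, 12 were higher and 11 lower by any amount, with a median of 0.01, while 65.2% of all genes above the floor were higher and 33.7% lower. This split depends on the scaling: centred on a lowess curve against signal, 10 members were higher and 13 lower, beside 50.3% and 49.7% of all genes, of which 1.21% were then higher and 0.988% lower by 0.322 or more. After quantile normalisation 11 members were higher and 11 lower, beside 55.5% and 44.4% of all genes, with 1.36% higher and 0.85% lower by 0.322 or more. Of the 23 differences, 18 lay inside the central 95% of all genes, a smaller share than that of all genes. The 5 outside this range were Meg3, Airn, Rian, Phlda2 and Asb4, with Rian at -0.21 just past the lower bound. The SD across the 23 was 0.21, against 0.13 across all genes above the floor.

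**Figure D1:**
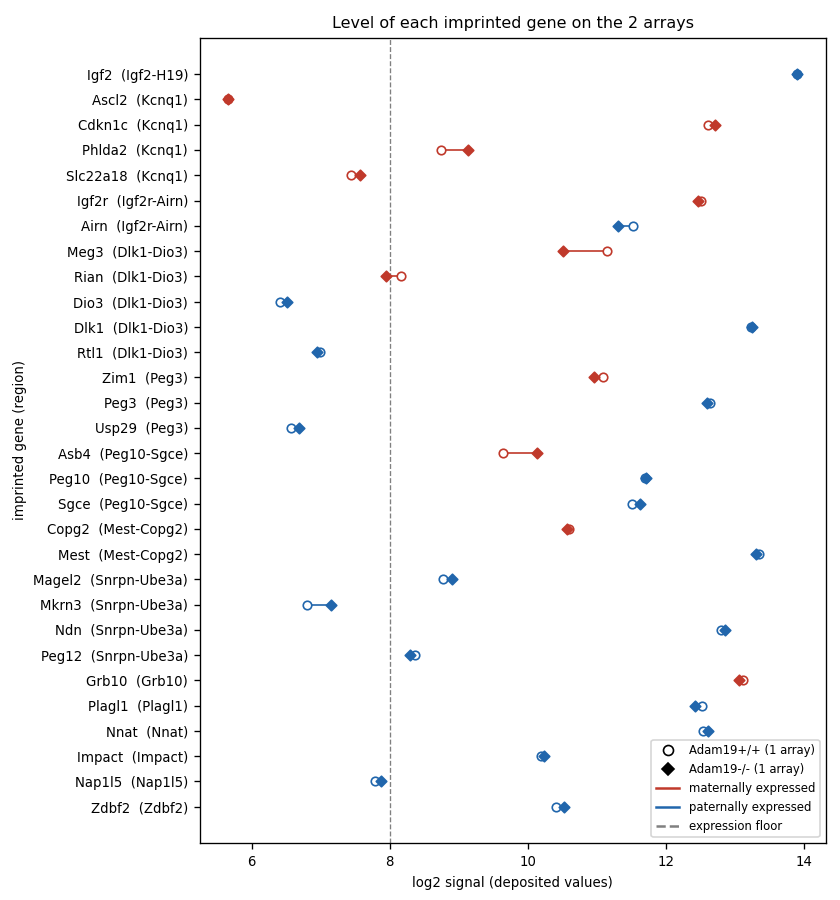
Log2 signal of the 30 imprinted genes on the Adam19+/+ array (open circle) and the Adam19-/- array (diamond), grouped by imprinted region and coloured by parental origin, with the expression floor of 8.01 dashed. Most pairs of symbols nearly coincide, and Meg3, Asb4, Phlda2 and the dim Mkrn3 are the pairs set farthest apart.

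The largest difference in the set lay in the Dlk1-Dio3 region of chromosome 12. In this region the coding genes Dlk1, Rtl1 and Dio3 are expressed from the paternal copy and the non-coding RNAs Meg3, Rian and Mirg from the maternal copy. Meg3 had a signal of 11.15 in Adam19+/+ cells against 10.51 in Adam19-/- cells, and its difference of -0.64 was the 8th lowest of the 10122 genes. Rian, which hosts small nucleolar RNAs, was at 8.16 and 7.95, a difference of -0.21. Only its Adam19+/+ signal exceeded the floor. A second cluster named Rian together with the small RNA AF357355 and gave 9.64 and 9.68, a difference of 0.04, so the 2 clusters that name Rian differed in sign. The cluster shared by Mirg and Mir410 was below the floor on both arrays, at 7.58 and 7.33, a difference of -0.25. Of the 4 clusters that name maternally expressed RNAs of the region, 3 were lower, beside 34.1% of all measured genes. That share covers only clusters that name a single gene, whereas those shared with Mir410 and AF357355 do not. Among these 3, only the cluster of Meg3 exceeded the floor on both arrays.

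The paternally expressed genes of the region did not share the difference of Meg3. Dlk1, a membrane protein related to Notch ligands, was at 13.24 and 13.25, a difference of 0.01. Rtl1, a retrotransposon-derived gene of placental capillaries, was at 6.99 and 6.94, and Dio3, a deiodinase that inactivates thyroid hormone, was at 6.40 and 6.52. Both were below the floor. Around the region, the 4 nearest measured genes above the floor were Wars, Ppp2r5c, Dync1h1 and Hsp90aa1, with differences from -0.08 to 0.05. Meg3 therefore differed by more than any coding gene measured beside it.

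The region also holds many small RNA genes, and the array measured 43 of them with a cluster of their own, 40 miRNA genes and 3 small nucleolar RNAs. The total RNA was labelled, so a signal can come from the hairpin or its host transcript as well as from the mature miRNA. Only 6 of the 43 exceeded the floor. Of all 43, 19 were higher, 17 were lower and 7 did not differ, and the median was 0. By 0.322 or more 2 were lower (Mir540 and Mir127), against 3.25% of 308 other miRNA and snoRNA genes, and 0 were higher, against 6.49%. Mir540 was at 8.08 and 7.68, a difference of -0.39, and Mir127, below the floor, was at 7.24 and 6.91, a difference of -0.34. At the other end Mir300 was at 6.49 and 6.81, a difference of 0.318, also below the floor. Their mature sequences in RefSeq are printed with the seed, bases 2 to 8, in capitals.
mmu-miR-540-5p (chr12:109586085-109586107, + strand): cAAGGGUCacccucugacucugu
mmu-miR-540-3p (chr12:109586122-109586141, + strand): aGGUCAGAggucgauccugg
mmu-miR-127-5p (chr12:109592854-109592875, + strand): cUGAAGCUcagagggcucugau
mmu-miR-127-3p (chr12:109592888-109592909, + strand): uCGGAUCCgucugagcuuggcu
mmu-miR-300-5p (chr12:109724318-109724339, + strand): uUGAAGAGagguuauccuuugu
mmu-miR-300-3p (chr12:109724363-109724384, + strand): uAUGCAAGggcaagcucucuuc

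None of these 6 seeds is shared with another arm of the 40 miRNA genes, whose 76 mature arms carry 74 seeds. By the gene table's order, the 8 small RNA genes between Meg3 and Rian had a median of -0.10, with 4 lower, 3 higher and 1 equal. The 4 within Rian had a median of -0.05 and the 31 beyond it a median of 0. This division by place was chosen after the values were seen. Between Meg3 and Rian, Mir540 and Mir665 differed by -0.39 and -0.26. Each exceeded the floor on the Adam19+/+ array only, so the floor itself chose them in this direction. The cluster that names Mir433 together with a second transcript was at 7.25 and 6.88. Rtl1 and several of these miRNA genes overlap in the gene table, so their signals may not be independent.

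**Figure D2:**
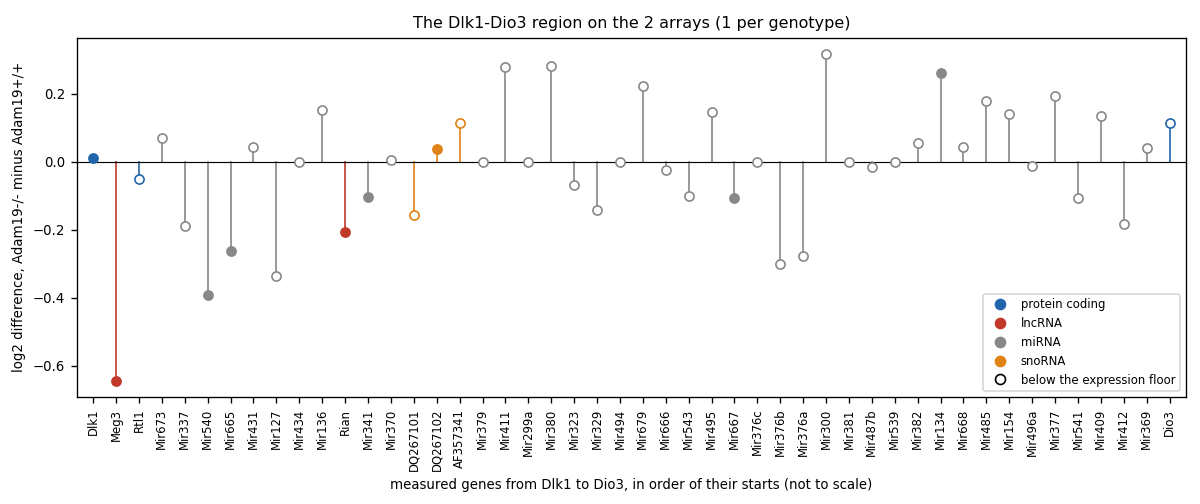
Log2 difference, Adam19-/- minus Adam19+/+ (1 array each), of the 48 measured genes from Dlk1 to Dio3 in the order of their starts, not to scale, coloured by type of transcript, with open symbols for genes below the expression floor. Meg3 at -0.64 has the largest difference, Dlk1 at 0.01 lies on the zero line, and the miRNA genes scatter to both sides.

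Among the non-coding members, Airn was measured beside Meg3 and Rian. Airn, the paternally expressed RNA that silences Igf2r in cis, had a signal of 11.52 in Adam19+/+ cells against 11.30 in Adam19-/- cells, which is lower by 1.17-fold (-0.22). Meg3 and Airn exceeded the floor on both arrays and were lower, as were 33.7% of all genes, whereas Rian exceeded it only through its Adam19+/+ signal, so its direction follows from the floor. Of 75 other long non-coding genes above the floor, 46.7% were lower and 12% were lower by 0.322 or more, and their median was 0.01. The difference of Airn is smaller than the 95th percentile of the gap between clusters of a gene, 0.24, and that of Rian is too. The 20 coding members that exceeded the floor ran from -0.13 to 0.49 around a median of 0.01. Of these 20, 12 were higher and 8 lower, beside 65.2% and 33.7% of all genes above the floor.

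Some other long RNAs often held in the nucleus were lower in the same sample. All 6 measured RNAs of a list of 10 that holds no imprinted gene of the set were lower, with a median of -0.17. By comparison, 34.1% of all measured genes were lower. Of 723 measured long non-coding genes outside the set, 315 were lower and 237 higher. Malat1, the abundant RNA of nuclear speckles, was at 11.85 and 11.48, a difference of -0.36. Of the 6, only Malat1 passed the fold used for counting, beside 12% of the 75 long non-coding genes above the floor that were lower by that fold. Xist, which silences an X chromosome in females, differed by -0.11 and Tug1 by -0.06, and the remaining 3 were below the floor. That such RNAs were lower was known when the list was drawn up, so it is no independent support. Their part in the values of Meg3, Rian and Airn was not tested.

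The receptor opposed to Airn differed less. Igf2r, which binds and clears insulin-like growth factor II and overlaps Airn in the gene table, was at 12.50 and 12.47, a difference of -0.03. Its ligand Igf2, the main fetal growth factor, was at 13.89 and 13.90, a difference of 0.01. Grb10, an adaptor that damps insulin and IGF receptor signalling, was at 13.12 and 13.06, a difference of -0.05. Plagl1, a zinc finger factor that activates other imprinted genes, was at 12.53 and 12.42, a difference of -0.10. The genes of the IGF axis in the set therefore lay within 0.06 of equal signal, and Plagl1 within the central 95% of all genes. Grb10 lies on chromosome 11, as Adam19 does.

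The Kcnq1 region of chromosome 7 held Phlda2, the second of the higher genes. Phlda2, a pleckstrin homology protein that restrains placental growth, had a signal of 8.75 in Adam19+/+ cells against 9.13 in Adam19-/- cells, and its difference of 0.38 was the 107th highest of the 10122 genes. Its neighbour Cdkn1c, the cyclin-dependent kinase inhibitor p57, was at 12.61 and 12.72, a difference of 0.11. Slc22a18, a membrane transporter gene that lies between Cdkn1c and Phlda2, was at 7.45 and 7.58, and Ascl2, a trophoblast transcription factor, was at 5.66 on both arrays. Both were below the floor. All 4 are maternally expressed, and 3 were higher and 1 equal, beside 51.7% of all measured genes higher. Above the floor 2 of 2 were higher, beside 65.2% of all genes. Outside the span of the region's listed genes, Nap1l4 differed by -0.03, Cars by -0.04, Mrpl23 by 0.13 and Th by 0.46. Nap1l4 and Th are themselves in the list of other imprinted-region genes described below. Th, which encodes the catecholamine enzyme tyrosine hydroxylase, is also a marker of the autonomic neurons in the sort, of which 3 of 4 were higher.

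Asb4 had the largest positive difference of the set and lies beside Peg10 and Sgce on chromosome 6. Asb4, an adaptor of a ubiquitin ligase that is expressed from the maternal copy, was at 9.65 and 10.13, a difference of 0.49, the 46th highest of the 10122 genes. Peg10, a retrotransposon-derived gene needed in the placenta, was at 11.70 and 11.71, a difference of 0.02. Sgce, which encodes epsilon-sarcoglycan, was at 11.52 and 11.63, a difference of 0.11. Of the flanking genes above the floor, Pdk4 differed by -0.06, Slc25a13 by 0.19, Casd1 by 0.05, Col1a2 by -0.02 and Bet1 by -0.01. Asb4 thus differed by more than its measured neighbours above the floor, while Dync1i1, below the floor, differed by -0.50. Leukocyte, cardiomyocyte and mesenchyme markers were higher in the same sample, and their part in the values of Asb4 and Phlda2 was not tested.

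**Figure D3:**
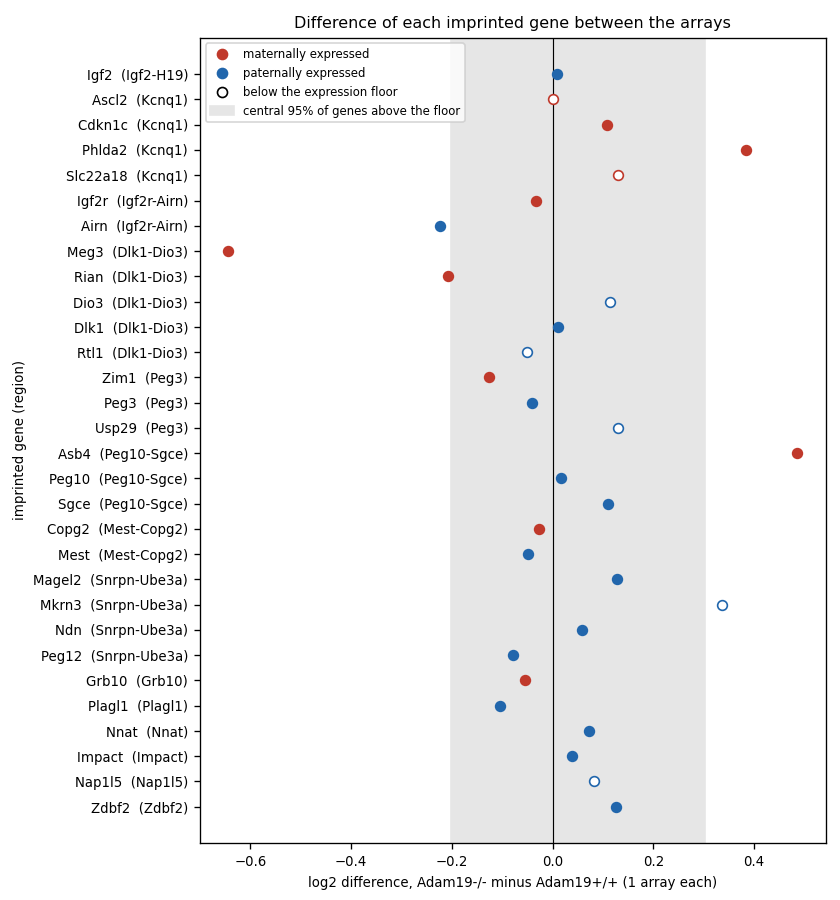
Log2 difference, Adam19-/- minus Adam19+/+ (1 array each), of the 30 imprinted genes by region and parental origin, with open symbols below the expression floor and a grey band for the central 95% of all genes above it (-0.20 to 0.30). Meg3, Airn and Rian lie to the left of the band and Asb4 and Phlda2 to the right, with the dim Mkrn3 at 0.34.

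The remaining regions showed small differences in both directions. In the Snrpn-Ube3a region of chromosome 7, Ndn, the growth-restraining protein necdin, was at 12.80 and 12.86, and its relative Magel2 was at 8.78 and 8.90. Peg12, a GSK3-binding protein, was at 8.37 and 8.29. Mkrn3, a ring finger protein, was at 6.81 and 7.14, a difference of 0.34 below the floor. These 4 are paternally expressed, and 3 were higher, beside 51.7% of all measured genes. Above the floor 2 of 3 were higher, beside 65.2% of all genes. The cluster shared by Snurf and Snrpn was at 9.59 and 9.70, and that shared by Ube3a and 3 other symbols was at 9.95 and 9.97.

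In the Peg3 region the zinc finger gene Peg3 was at 12.64 and 12.60 and the maternally expressed Zim1, another zinc finger gene, at 11.09 and 10.96. Usp29, a ubiquitin protease gene, was below the floor at 6.56 and 6.69. Mest, a hydrolase-like growth gene, was at 13.35 and 13.30, and its neighbour Copg2, a vesicle coat subunit, at 10.59 and 10.57. No gene of these 2 regions differed by more than 0.13. Among the genes that stand alone, Nnat, a membrane proteolipid, was at 12.54 and 12.61, and Zdbf2, a zinc finger gene, at 10.41 and 10.53. Impact, a regulator of translation, was at 10.20 and 10.23, and Nap1l5, a relative of nucleosome assembly proteins, was just below the floor at 7.79 and 7.88. The cluster shared by Gnas, the stimulatory G protein subunit, and Gnasas1 was at 12.43 and 12.33.

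Of the members above the floor, the 3 that differed by 0.322 or more are maternally expressed, while the paternally expressed Mkrn3, below the floor, differed by 0.34. The 9 maternally expressed genes above the floor ran from -0.64 to 0.49, with a median of -0.03 and an SD across genes of 0.33. The 14 paternally expressed genes ran from -0.22 to 0.13, with a median of 0.01 and an SD of 0.10. Without Meg3, Phlda2 and Asb4 the 6 other maternally expressed genes had a median of -0.04 and an SD of 0.11. These 3 were left out after their values were seen, as those with the largest differences, so a smaller SD was bound to follow. The paternally expressed genes were not trimmed in this way. The number of maternally expressed genes higher was 3 of 9, and that of paternally expressed genes 9 of 14, both beside 65.2% of all genes. The difference between the groups was not tested.

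**Figure D4:**
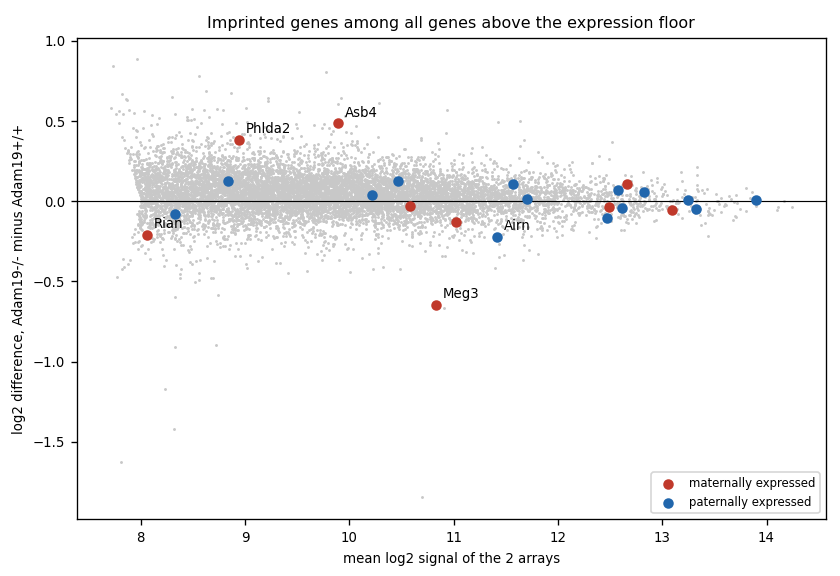
Log2 difference, Adam19-/- minus Adam19+/+ (1 array each), against mean log2 signal for the 10122 genes above the expression floor (grey), with the 23 imprinted genes coloured by parental origin. Meg3 at -0.64 lies below nearly all genes of its signal and Asb4 at 0.49 near its upper edge, while the brightest imprinted genes lie close to 0.

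Genes next to the regions were compared as a local background, which is not free of genes reported as imprinted. Some of them, Th and Ddc included, also belong to the list of other imprinted-region genes described next, so the sets overlap. The 3 nearest measured genes on each side of the 16 regions gave 56 genes above the floor. They ran from -0.21 to 0.46 around a median of 0.05. Of the 56, 34 were higher, 21 lower and 1 equal, beside 65.2% higher and 33.7% lower of all genes above the floor. The 2 that were higher by 0.322 or more were Th, beside Igf2 and Ascl2, and Ddc, beside Grb10, against 1.97% of all genes. By that amount 0 were lower, against 0.652% of all genes, so a count of 0 among 56 is near the background. Both encode enzymes of catecholamine synthesis.

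A list of 47 other genes reported as imprinted or lying in such regions was measured for 43, and 30 were above the floor. The median of the 30 was 0.03, with 18 higher and 11 lower, beside 65.2% and 33.7% of all genes. By 0.322 or more 4 were higher and 0 lower, beside 1.97% and 0.652% of all genes. Ampd3, an AMP deaminase, was at 8.45 and 9.02, a difference of 0.58. Th was at 9.58 and 10.03, Kcnk9, a potassium channel gene, at 8.61 and 9.04, and Ddc at 9.84 and 10.21. Th and Ddc are the same genes already counted among the flanking genes. Th and Ddc are not imprinted in most tissues, and Ddc is known for paternal expression in the embryonic heart.

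Factors that set or keep DNA methylation at imprints were also measured. All 19 genes of the list were measured, and the 15 that exceeded the floor ran from -0.12 to 0.17 around a median of 0.02. Of these 15, 8 were higher and 7 lower, beside 65.2% and 33.7% of all genes above the floor. By 0.322 or more 0 differed, and with 1.97% of all genes higher and 0.652% lower by that amount, a count of 0 among 15 is near the background. Dnmt1, the methyltransferase that copies methylation at replication, was at 11.22 and 11.17. Zfp57, which protects imprints in the early embryo, was at 11.24 and 11.12, and its partner Trim28 at 11.74 and 11.87. Zfp445, a second imprint-protecting zinc finger gene, was at 9.89 and 10.03, and the histone methyltransferase gene Ehmt2 had the largest difference, 0.17. Methylation itself was not measured.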

How the data were processed

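The values are log2 signals per transcript cluster of the Affymetrix Mouse Gene 1.0 ST array, deposited by the authors in a table of 28853 clusters and 1 column per sample. No source used here gives the background correction, normalisation, probe summary or log base. As log2 the highest value is a linear 23484, within the range of a scanner, so the values were read as log2 and were not normalised again. RNA came from sorted tdTomato-positive cells of collagenase-digested hearts, per the labels' protocols.

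Clusters with 1 gene symbol (21789) were named by the platform annotation of 2016 and, through Entrez identifiers, a RefSeq table of GRCm38.p6 (21698 matched). The brightest cluster stood for a gene. Coordinates are those of the RefSeq sequence tables. With 1 array per genotype no p-value was computed; a difference was counted at a ratio of 5 to 4 (0.322 on the log2 scale) or at 1.5-fold. Every member was named, and at most 4 genes of each other list, those with the largest differences above the floor, beside flanking and small RNA genes and Dnmt1. The members and lists were chosen with earlier results of these data known. The number of arrays limits the precision. Values were computed in Python 3.11.15 with pandas 2.3.3, numpy 2.4.6 and statsmodels 0.14.6 and drawn with matplotlib 3.10.9. The counting code was checked on shuffled differences with added changes larger than that of any imprinted gene. Added changes near the fold used for counting were not checked. Alternatives covered the floor, quantile normalisation, centring, an offset of 32 and averaged clusters.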

Additional observations from a re-analysis of the deposited data

How the results depend on the processing

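Under 7 alternatives the median of the imprinted genes above the floor stayed between -0.0028 and 0.013, and the count lower by 0.322 or more stayed at 1. A higher floor, the 75th percentile of the genes (9.76), left 19 members, of which 1 was higher by 0.322 or more, since Phlda2 lies below that floor, and with no floor 3 were higher, Mkrn3 among them. In the other scalings Meg3 ran from -0.67 to -0.63, Asb4 from 0.44 to 0.49 and Phlda2 from 0.33 to 0.38. Only Impact, Peg10 and Ascl2, none of them over 0.04 in size, changed sign in a scaling. Of 150 values for single genes, 147 moved by less than the median gap between clusters of a gene, 0.05. Many of the 150 could not have moved by more. Averaging clusters leaves a gene with 1 cluster unchanged, and centring on the median of all genes shifted every gene by 0.006. No paired analysis was possible because there is 1 array per genotype. For the same reason no array could be left out. Genes below the floor, among them Mkrn3 and most small RNAs of the Dlk1-Dio3 region, have signals too low for their differences to carry weight.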
